A study of Homo sapiens with 2 samples.

Results

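The 8 genes described here write, copy, remove or read DNA methylation. They were taken by gene name from the deposited count tables: DNMT1, DNMT3A, DNMT3B, UHRF1, TET1, TET2, TET3 and MBD2, 8 of the 58735 genes listed, and all 8 were found once. RNA sequencing compared BHT101 cells labelled as overexpressing SETDB2 with BHT101 cells labelled as their control, with 1 library in each group. BHT101 is a human cell line from an anaplastic thyroid carcinoma, and both groups were grown alike in DMEM with serum and sodium pyruvate. The labels do not name the vector or its promoter, nor say whether the SETDB2 cells were 1 clone or a pool, or how long after its introduction RNA was taken. The study's title places SETDB2, a member of the family of histone H3 lysine 9 methyltransferases, in the control of thyroid cancer progression and of the splicing factor U2AF1.

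Methyl groups on cytosine are placed by DNA methyltransferases, mostly where a cytosine is followed by a guanine (CpG). DNMT3A and DNMT3B methylate sites that carry no mark, while DNMT1 copies the mark onto the new strand after replication, guided to half-methylated sites by UHRF1. TET enzymes oxidise methylcytosine, the first step of its removal, and MBD2 binds methylated CpG and brings the NuRD repressor complex to it. SETDB2 itself carries a domain of the methyl-CpG-binding family, and H3K9 methylation and DNA methylation mark many of the same silent regions.

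With 1 library per group there is no spread between replicates, so no test was possible and no p-value is given. The SETDB2 library held 34053348 counts and the control library 33572025. Levels below are the authors' FPKM, counts scaled to gene length and library size. Differences are log2 ratios, SETDB2 over control, on counts scaled with TMM factors, which correct for composition. Each 95% interval covers counting error only and leaves out differences between cultures, library preparations and PCR copies. SETDB2 had 1370 counts in the SETDB2 library and 507 in the control library, a log2 ratio of 1.43 (1.28 to 1.58), which is the direction of its label. All 8 epithelial markers were detected, with a summed level of 2434 CPM (counts scaled to library size) in the SETDB2 library and 2279 CPM in the control library. They shared no direction, with 5 log2 ratios above 0 and 3 below, from -0.78 to 0.37. The 10 thyroid markers summed to 73.4 CPM in the SETDB2 library and 35.8 CPM in the control library, and nearly all of it was DIO2, a deiodinase. DIO2 had 70.7 CPM in the SETDB2 library and 33.2 CPM in the control library, a log2 ratio of 1.09 (0.99 to 1.20). Of the 10 markers 7 lay under 1 CPM in both libraries, and NKX2-1 had no count in either. The 10 leukocyte markers summed to 3.75 CPM in the SETDB2 library and 4.95 CPM in the control library, with MS4A1 at 0 in both. The 11 fibroblast and endothelial markers summed to 89.9 CPM in the SETDB2 library and 71.2 CPM in the control library, with CDH5 at 0 in both. LUM alone gave 62.7 CPM in the SETDB2 library and 46.4 CPM in the control library. Their part in the results below was not tested.

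Among the promoter windows searched for the 8 genes, only windows of DNMT1 and UHRF1, the maintenance pair, held the E2F motif. The search was chosen after the counts were seen. A link between the motif and the ratios of these genes was not tested. E2F factors drive genes of DNA replication. The motif was spelled as TTTCCCGC, TTTCGCGC, TTTGCCGC or TTTGGCGC on either strand, and overlaps between them were allowed. The windows were RefSeq promoters on GRCh38.p14, 300 bases each, from 250 bases before to 50 after a start site. All 8 genes matched at least 1 window. The stretches below, 100 bases before to 30 after the start site, are shown because only DNMT1 and UHRF1 among the 8 genes had a match. For UHRF1, 1 of its 2 matching windows was used. The stretches are chr19:10194924-10195053 on the minus strand for DNMT1 and chr19:4909401-4909530 on the plus strand for UHRF1. Capitals mark the match, which in both reads as the reverse complement of a listed motif.
DNMT1: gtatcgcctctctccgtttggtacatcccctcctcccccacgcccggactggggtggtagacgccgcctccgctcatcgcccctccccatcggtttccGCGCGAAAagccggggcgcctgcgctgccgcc
UHRF1: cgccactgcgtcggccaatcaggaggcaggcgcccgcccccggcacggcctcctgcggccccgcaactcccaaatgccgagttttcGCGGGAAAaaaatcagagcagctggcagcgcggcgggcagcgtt
The match begins 2 bases before the start site in DNMT1 and 14 bases before it in UHRF1, where 2 of 3 windows held one. Of all 35116 promoter windows 1164 (3.32%) held a motif. Of 19 S phase genes with a window, 11 did in at least 1 window, against 3.99% of all 27305 genes counted in that way. The windows of the 8 genes, 1 used for each, also differed in CpG. DNMT1 held 30 CpG in 300 bases, UHRF1 36, MBD2 32, TET3 45, DNMT3A 18, TET2 13, TET1 10 and DNMT3B 3. Other windows of the same genes, of which DNMT3A has 6 in all and TET1 3, were left out of these values. The DNMT3B window (chromosome 20, 32779602 to 32779901) is the 1 that RefSeq gives here and lies inside the span of the gene in the tables. So do the windows of DNMT1 and UHRF1 printed in part above, and for these genes and DNMT3B the 5' end of the span was not searched. The median over all windows was 14, and over the windows of the S phase genes it was 30.5. Each listed motif contains a CpG, and the shares of windows and genes above were not matched for CpG. A match describes letters in a window, and absence of one says nothing of E2F at that gene.

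The maintenance pair stood at the top of the 8 genes. DNMT1 (ENSG00000130816, chromosome 19, 10133345 to 10231286, minus strand) had 8092 counts and 24.4 FPKM (23.9 to 24.98) in the SETDB2 library. In the control library it had 7602 counts and 22.9 FPKM (22.4 to 23.5). The log2 ratio was 0.08 (0.04 to 0.13), so the libraries differed by more than counting error but by a small amount. In bulk RNA more transcript per cell and more cells with the transcript cannot be told apart. That value moved to 0.15 once the trend of the ratios with GC content was removed. UHRF1 (ENSG00000276043, chromosome 19, 4903080 to 4962154, plus strand) had 2841 counts and 16.3 FPKM (15.7 to 17.0) in the SETDB2 library, and 2592 counts and 14.9 FPKM (14.3 to 15.5) in the control library. Its log2 ratio of 0.13 (0.05 to 0.20) was of the same order as that of its partner. A processed pseudogene of UHRF1, AC112777.1, lies on chromosome 12 from 20551590 to 20553012. When the longest UHRF1 transcript was cut into all pieces of 75 bases, 77.0% of them occurred in UHRF1 alone. The pseudogene was lower in the SETDB2 library, with 109 counts against 164 in the control library. Adding it to UHRF1 left a log2 ratio of 0.09 (0.02 to 0.17), still above 0. The longest transcripts of the other 7 genes shared no piece with another gene. DNMT1 shares 83 of its exon bases (0.85%) with S1PR2 on the same strand. S1PR2 had 53 counts in the SETDB2 library and 71 in the control library.

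**Figure D1:**
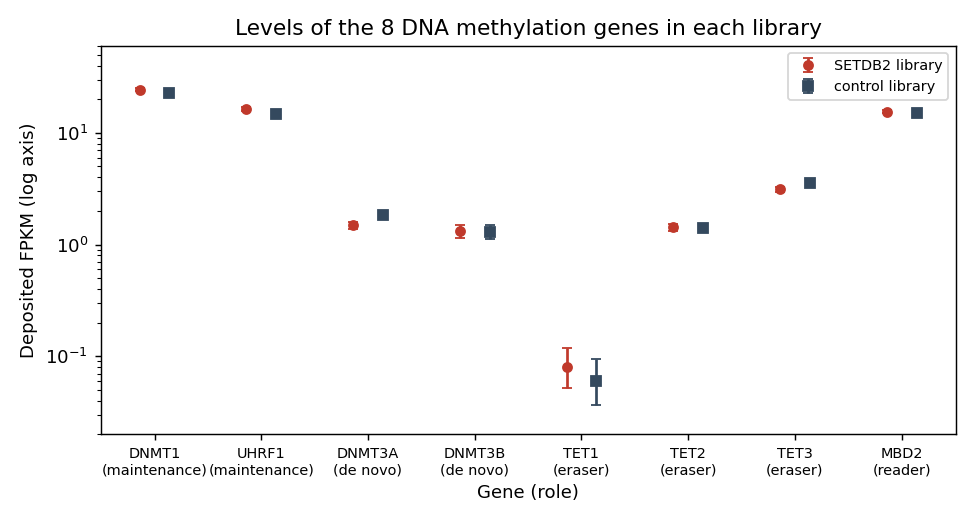
FPKM of the 8 genes on a log axis, with the SETDB2 library as circles and the control library as squares, and bars for the 95% counting interval. DNMT1, UHRF1 and MBD2 sit above 14 FPKM in both libraries, TET3, DNMT3A, TET2 and DNMT3B between 1.30 and 3.54 FPKM, and TET1 under 0.1 FPKM.

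The de novo methyltransferases were far lower in level. DNMT3A was lower in the SETDB2 library by more than counting error and DNMT3B was not. The intervals of their ratios overlap, which does not settle whether the pair differed. A difference between the pair was not tested and is not shown. DNMT3A (ENSG00000119772, chromosome 2, 25227855 to 25342590, minus strand) had 603 counts and 1.48 FPKM (1.37 to 1.61) in the SETDB2 library, against 747 counts and 1.84 FPKM (1.71 to 1.97) in the control library. Its log2 ratio was -0.315 (-0.47 to -0.16), the lowest of the 8. The libraries did not overlap within counting error, and the ratio lay just short of 0.322 in size, the smaller of the thresholds used below. With total counts in place of TMM it lay just past it, at -0.329. DNMT3B (ENSG00000088305, chromosome 20, 32762385 to 32809356, plus strand) had 206 counts and 1.32 FPKM (1.14 to 1.51) in the SETDB2 library. In the control library it had 204 counts and 1.30 FPKM (1.13 to 1.49). The log2 ratio was 0.01 (-0.28 to 0.29), so a difference of up to about 1.23-fold was not detectable at this depth. Both genes together had 809 counts in the SETDB2 library and 951 in the control library, a log2 ratio of -0.24 (-0.38 to -0.10). DNMT3B made up 25.5% of these counts in the SETDB2 library (exact binomial interval 22.5 to 28.6%) and 21.5% in the control library (18.9 to 24.2%). The intervals overlap, which does not settle whether the shares differed by more than counting error, and this was not tested. On FPKM, which takes the longer gene model of DNMT3A into account, the share of DNMT3B was 47.0% in the SETDB2 library and 41.5% in the control library.

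The transcripts of the methyltransferases were mainly those of DNMT1. It held 90.9% of the counts of the 3 genes in the SETDB2 library (90.3 to 91.5%) and 88.9% in the control library (88.2 to 89.5%). These intervals do not overlap, and the share depends on no scaling between libraries. Over the 3 genes the counts were 8901 in the SETDB2 library and 8553 in the control library, a log2 ratio of 0.05 (0.01 to 0.09). With total counts in place of TMM it was 0.037 (-0.0060 to 0.08), an interval that crosses 0.

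TET3 was the most abundant of the TET dioxygenases, TET2 stood below it, and TET1 was barely detected. TET3 (ENSG00000187605, chromosome 2, 73986404 to 74108176, plus strand) had 1295 counts and 3.12 FPKM (2.95 to 3.30) in the SETDB2 library. In the control library it had 1469 counts and 3.54 FPKM (3.36 to 3.72). Its log2 ratio of -0.19 (-0.30 to -0.08) made it, after DNMT3A, the other member that was lower by more than counting error. TET2 (ENSG00000168769, chromosome 4, 105145875 to 105279816, plus strand) gave nearly equal counts in the libraries. It had 796 counts and 1.43 FPKM (1.33 to 1.53) in the SETDB2 library, and 788 counts and 1.41 FPKM (1.32 to 1.52) in the control library. The log2 ratio was 0.01 (-0.14 to 0.15), and its sign turned with total counts (-0.01) and with the GC trend removed (-0.05). TET1 (ENSG00000138336, chromosome 10, 68560656 to 68694482, plus strand) had 25 counts and 0.0796 FPKM (0.0515 to 0.118) in the SETDB2 library, against 19 counts and 0.0605 FPKM (0.0364 to 0.0944) in the control library. It was the only 1 of the 8 genes under the count filter described below. Its log2 ratio of 0.38 (-0.53 to 1.33) leaves either direction possible.

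The counts of the 3 TET genes summed to 2116 in the SETDB2 library and 2276 in the control library, a log2 ratio of -0.11 (-0.20 to -0.03). TET3 made up 61.2% of them in the SETDB2 library (59.1 to 63.3%) and 64.5% in the control library (62.5 to 66.5%). TET2 made up 37.6% in the SETDB2 library (35.5 to 39.7%) and 34.6% in the control library (32.7 to 36.6%). For both genes the intervals of the 2 libraries overlap, which does not settle whether the shares differed by more than counting error. This was not tested. Summed FPKM of the methyltransferases was 5.88 times that of the TET genes in the SETDB2 library and 5.20 times in the control library.

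The reader MBD2 (ENSG00000134046, chromosome 18, 54151601 to 54224788, minus strand) stood at a level close to that of UHRF1. It had 3042 counts and 15.5 FPKM (14.9 to 16.1) in the SETDB2 library, and 2944 counts and 14.98 FPKM (14.4 to 15.5) in the control library. Its log2 ratio was 0.04 (-0.03 to 0.11), within counting error.

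**Figure D2:**
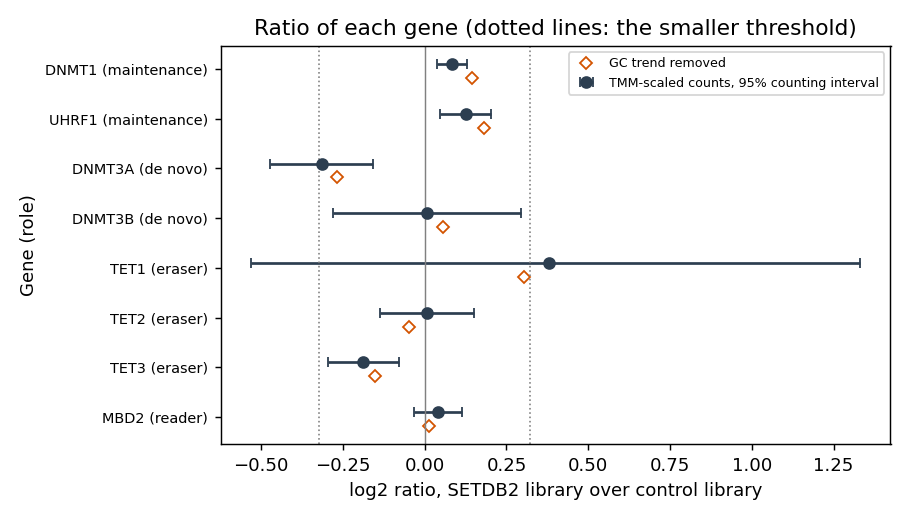
Log2 ratio of each gene, SETDB2 over control (x axis), with its 95% counting interval (filled circles), and the value after the trend with GC content was removed (open diamonds). Dotted lines mark 0.322 in size. DNMT1 and UHRF1 lie above 0 and DNMT3A and TET3 below it with intervals that exclude 0, while the intervals of the other 4 cross it.

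The order of levels was nearly shared by the libraries. In the SETDB2 library DNMT1 came first, followed by UHRF1, MBD2, TET3, DNMT3A, TET2, DNMT3B and TET1. In the control library MBD2 stood before UHRF1. The counting intervals of UHRF1 and MBD2 overlapped in both libraries, as did those of TET2 and DNMT3B. DNMT3A and TET2 overlapped in the SETDB2 library and did not in the control library. Among protein-coding genes ranked by FPKM, DNMT1 stood at percentile 91.2 in the SETDB2 library and 90.8 in the control library. TET3 stood at percentile 59.1 in the SETDB2 library and 60.6 in the control library, and TET1 at percentile 32.7 in the SETDB2 library and 31.1 in the control library. The protein-coding gene nearest in log2 FPKM over the 2 libraries was VASP for DNMT1, GOLGA4 for UHRF1, LRRK1 for DNMT3A, PSTK for DNMT3B, CASK for TET3, SPDYE2 for TET2, HIST1H2AC for MBD2 and FBN2 for TET1. The distances were 0.0024 to 0.041 log2 units, and over 2 libraries this says only that the levels lay close.

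Across all genes, 14518 were kept for comparison, those with 50 or more counts over both libraries and 1 CPM or more in either. Of the 8 members 7 were kept. None of the 8 was at least 2-fold apart with an interval that excluded equality, beside 2.68% of all genes kept, 1.07% higher and 1.61% lower in the SETDB2 library. A smaller threshold took ratios of at least 0.322 in size on the log2 scale, again with an interval that excluded equality. None of the 8 passed it, beside 18.3% of all genes, 7.74% higher and 10.5% lower. The interval alone excluded equality for 4 of the 7, beside 51.0% of all genes. Of these, 2 were higher, beside 26.3%, and 2 were lower, beside 24.7%. Among the 8653 genes with at least 1000 counts over both libraries it did so for 59.8%. The share is near the background and is no result about these genes. The median log2 ratio of the 7 was 0.01, beside 0.00 over all genes that passed. The middle 80% of the 8653 well-counted genes ran from -0.23 to 0.24, a range that DNMT3A alone among the 7 left.

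**Figure D3:**
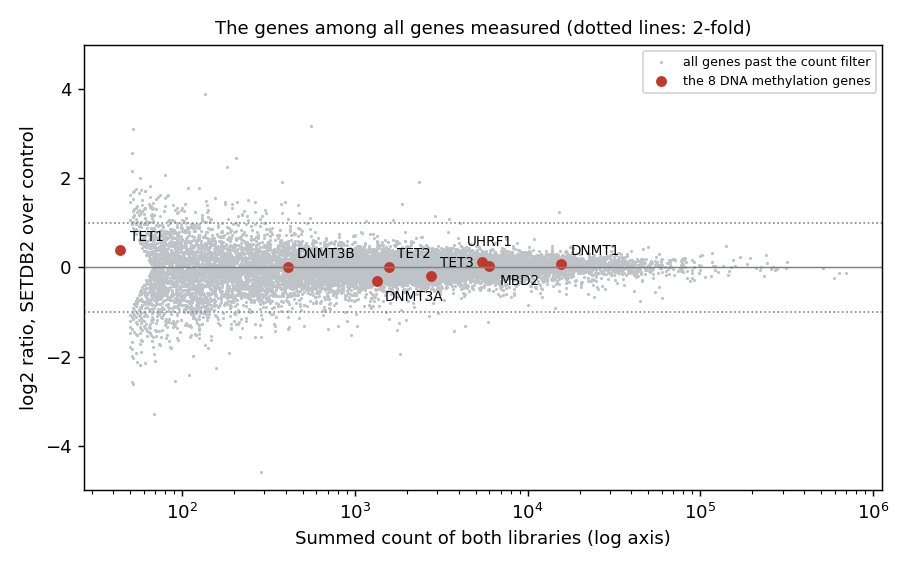
Log2 ratio against the summed count (log axis) of all 14518 genes that passed the filter (grey) and of the 8 genes (red). The 8 genes lie well inside the 2-fold lines over the whole range of counts, from 44 for TET1 to 15694 for DNMT1.

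Cofactors of maintenance and de novo methylation were mostly higher in the SETDB2 library. Of 12 genes 11 passed the filter, 10 lay above 0 and 1 below, with a median log2 ratio of 0.17 beside 0.00 over all genes. The interval lay above 0 for 7, beside 26.3% of all genes, and below it for 1, beside 24.7%. Intervals exclude equality more often in well-counted genes, 59.8% in either direction with at least 1000 counts over both libraries, beside 51.0% of all genes. The lists here and below were not matched for depth. Only CDCA7L passed the smaller threshold, 1 of 11 beside 7.74% of all genes higher, a share near the background. CDCA7L, a paralog of CDCA7, had 1402 counts in the SETDB2 library and 980 in the control library, a log2 ratio of 0.51 (0.39 to 0.63), though 20.4% of its exon bases overlap DNAH11 on the opposite strand. CDCA7, which recruits the remodeller HELLS, had 1892 counts in the SETDB2 library and 1563 in the control library, a log2 ratio of 0.27 (0.17 to 0.37). HELLS itself had a log2 ratio of 0.17 (0.07 to 0.27), or 0.06 once the GC trend was removed. ZBTB24, a transcription factor mutated in the same immunodeficiency syndrome as DNMT3B, CDCA7 and HELLS, had a log2 ratio of 0.31 (0.19 to 0.44). PCNA, the replication clamp that DNMT1 binds, had 6871 counts in the SETDB2 library and 5698 in the control library, a log2 ratio of 0.26 (0.21 to 0.31). DNMT3L, the catalytically inactive partner of DNMT3A, had 1 count over both libraries.

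Most genes of DNA replication also lay above 0, which is given here because DNMT1 and UHRF1 act at the replication fork. Of 24 S phase genes 19 lay above 0 and 5 below, with a median of 0.16. The interval lay above 0 for 14, beside 26.3% of all genes, and below it for 2, beside 24.7%. CCNE2 and CDC6 passed the smaller threshold, 2 of 24 beside 7.74% of all genes higher, a share near the background. CDC6, which loads the MCM helicase, had 2441 counts in the SETDB2 library and 1926 in the control library, a log2 ratio of 0.34 (0.25 to 0.42). MCM4 of the helicase had 32126 counts in the SETDB2 library and 25778 in the control library, a log2 ratio of 0.31 (0.29 to 0.34), and RRM2 of ribonucleotide reductase, with 20.2% of its exon bases inside AC007240.1, had a log2 ratio of 0.29. CCNE2, cyclin E2, had a log2 ratio of 0.60 (0.32 to 0.88), and 37.0% of its exon bases overlap INTS8 on the opposite strand. Whether the share of cycling cells differed between the samples, and its part in the DNMT1 and UHRF1 values, was not tested.

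Genes of oxidation, base excision and repair showed no shared direction. All 18 passed the filter, 9 above 0 and 9 below, with a median of 0.00, and the interval lay above 0 for 6 and below it for 6, beside 26.3% and 24.7% of all genes. GADD45B, a stress gene linked to active demethylation, alone passed the smaller threshold, 1 of 18 beside 7.74% of all genes higher. That share is near the background. GADD45B had 562 counts in the SETDB2 library and 433 in the control library, a log2 ratio of 0.37 (0.19 to 0.55). OGT, the GlcNAc transferase that binds TET proteins, had 10839 counts in the SETDB2 library and 12902 in the control library, a log2 ratio of -0.26 (-0.30 to -0.22). IDH2, a mitochondrial enzyme that makes the TET cosubstrate 2-oxoglutarate, had a log2 ratio of -0.23 (-0.44 to -0.02). TDG, the glycosylase that excises oxidised methylcytosine, had 1644 counts in the SETDB2 library and 1449 in the control library, a log2 ratio of 0.18, or 0.08 once the GC trend was removed, and the uracil glycosylase UNG had a log2 ratio of 0.21.

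Other readers of methyl-CpG were split as well. Of 11 genes 5 lay above 0 and 6 below, with a median of -0.01, or 0.04 once the GC trend was removed. The interval lay above 0 for 3 and below it for 4, beside 26.3% and 24.7% of all genes. Only 1 of 11 passed the smaller threshold, in the lower direction, beside 10.5% of all genes, a share near the background. This was SETDB1, the paralog of SETDB2 with a methyl-CpG-binding domain of its own. It had 1741 counts in the SETDB2 library and 2232 in the control library, a log2 ratio of -0.37 (-0.46 to -0.27), with 13.4% of its exon bases overlapping CERS2 on the opposite strand. MBD5 had a log2 ratio of 0.26 (0.07 to 0.46), the zinc finger reader ZBTB33 (Kaiso) one of 0.18, or 0.07 once the GC trend was removed, and MBD1 one of -0.16.

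Of the NuRD complex, which MBD2 or MBD3 can anchor, 10 of 13 subunit genes lay above 0 and 3 below, with a median of 0.13. The interval lay above 0 for 8, beside 26.3% of all genes, and below it for 2, beside 24.7%. CHD5 alone passed the smaller threshold, 1 of 13 beside 7.74% of all genes higher, a share near the background. It stood on 78 counts in the SETDB2 library and 47 in the control library, a log2 ratio of 0.72 (0.18 to 1.28). RBBP4, a histone-binding subunit, had 5498 counts in the SETDB2 library and 4497 in the control library, a log2 ratio of 0.28 (0.23 to 0.34), and MTA3 and the remodeller CHD4 had a log2 ratio of 0.25 each. For CHD4 only 13.6% of the pieces of its longest transcript were unique to it, so its value is uncertain, and RBBP4 shares pieces with pseudogenes and with SYNC.

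**Figure D4:**
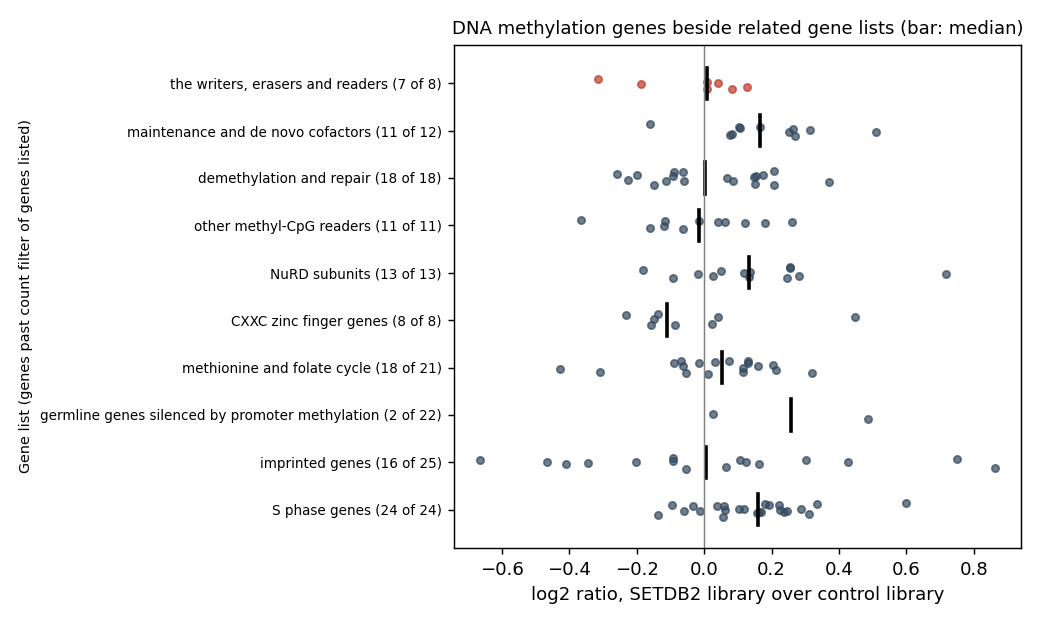
Log2 ratios of the genes of each list that passed the filter (points) and the list's median (bar), with the 8 genes in the top row. The medians of the cofactor (0.17), S phase (0.16) and NuRD (0.13) lists lie above that of the 8 genes (0.01). So do those of the germline list (0.26, on 2 genes) and the methionine and folate list (0.05). Of the lists plotted the imprinted genes spread most widely, from -0.66 to 0.86.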

How the data were processed

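RNA from 1 SETDB2 and 1 control sample was sequenced as 1 library each. The authors deposited whole-number counts per gene and FPKM for each library, 4 tables. Each deposited FPKM equals the count divided by gene length and by 1 constant per library. The submitters' processing notes list TopHat2 2.0.9 with Bowtie2 2.0.6, and Cuffdiff 2.1.1 with Cufflinks 2.1.1, without saying what each did. The counting program, strand setting and build were not given in the sources used here. All 58735 genes had the coordinates of GENCODE release 29 (GRCh38).

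Counts were scaled with TMM (edgeR 4.0.16, R 4.3.3). Log2 ratios used a prior count of 0.5. Intervals are exact Clopper-Pearson 95% intervals of the ratio of 2 counts, and exact Poisson intervals for FPKM (scipy 1.17.1). The calculation was tested on simulated data. The GC trend was a lowess fit (span 0.3) on the GC content of the longest transcript. The thresholds were 2-fold and 0.322 on the log2 scale, each with an interval excluding equality. They are rules of size, not tests. Without strand information, overlapping genes cannot be told apart. Alternatives were DESeq2 1.42.0 size factors, total counts, upper-quartile factors, deposited FPKM (pseudocount 0.1), GC removal, a prior count of 2 and other filters. Members and lists were chosen with earlier results of these data known. Named were the members, SETDB2, their nearest genes by FPKM and up to 4 genes per list with the largest ratio among intervals excluding equality, a few of which are not reported here; HELLS, TDG, MAT2A, DNMT3L, GTSF1, PIWIL1, MOV10L1 and DIO2 were named outside that rule with their values in view. IGF2, listed under 2 identifiers, took the longer gene model. Chosen after the counts were seen were the sum of UHRF1 and AC112777.1, the summed counts and FPKM of the DNMT and TET genes, the share of DNMT1, the promoter motif and CpG search and the promoters printed.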

Additional observations from a re-analysis of the deposited data

How the results depend on the processing

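Of 48 recomputed member ratios 47 stayed inside the main counting interval and none with an interval excluding equality changed sign. The exception was DNMT1 with the GC trend removed, at 0.15 against 0.08. Across the kept genes with 500 or more counts over both libraries the ratio followed GC content (Spearman -0.41 over 10234 genes, which are not replicates). With total counts 1 member, DNMT3A, passed the threshold of 0.322, against 0 otherwise. Total counts were also tried, after the data were seen, on the 3 summed ratios, and the sum of the DNMT genes moved to 0.037 with an interval that crosses 0, while the other two kept intervals below 0. Of 72 list medians 71 moved by less than the counting error of a typical member, and that of the CXXC genes moved to -0.022 with the GC trend removed. The germline median is among the 71 only because its counting error is wide. It fell from 0.26 to 0.028 with 200 or more counts over both libraries. By FPKM the DNMT3B share was 47.0% in the SETDB2 library and 41.5% in the control library, that of TET2 was 30.9% and 28.2%, and that of TET3 67.4% and 70.6%. Genes at least 2-fold apart numbered 389, or 217 from FPKM, 1922 without the count filter, 79 with 200 or more counts over both libraries and 1177 at 1.5-fold. Genes past 0.322 in size numbered 2650, or 4202 without the filter and 1177 at 1.5-fold. The DESeq2 size factors came out at 1 for both libraries. No paired analysis was possible because each group held 1 library, and for the same reason no library could be left out. Depth limits TET1, with 44 counts in all, and DNMT3B, with 410.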

Other observations

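The values here are log2 ratios, SETDB2 over control, with 95% counting intervals and the same filter and thresholds as above. Genes with a CXXC zinc finger, a domain that in most of them binds unmethylated CpG, lay on both sides of 0. Of 8 genes 3 lay above 0 and 5 below, with a median of -0.11, and once the GC trend was removed 4 lay above and 4 below, with a median of -0.02. CXXC4, whose product binds TET2 protein, alone passed the smaller threshold, 1 of 8 beside 7.74% of all genes higher. CXXC4 had 295 counts in the SETDB2 library and 215 in the control library, a log2 ratio of 0.45 (0.19 to 0.71). The H3K4 methyltransferase KMT2B had a log2 ratio of -0.23 (-0.30 to -0.16), or -0.09 with the trend removed, CXXC1 one of -0.16, or -0.05 with it removed, and the demethylase KDM2A one of -0.15.

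Enzymes of the methionine and folate cycles, which supply the methyl donor S-adenosylmethionine, had a median of 0.05 over the 18 of 21 that passed the filter, with 11 above 0 and 7 below. SHMT2, the mitochondrial serine hydroxymethyltransferase, had 10413 counts in the SETDB2 library and 12853 in the control library, a log2 ratio of -0.31 (-0.35 to -0.27). BHMT2 had a log2 ratio of 0.32 (0.19 to 0.45). MAT2A, which makes the methyl donor, had 16611 counts in the SETDB2 library and 17341 in the control library, a log2 ratio of -0.07.

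A pair of lists held genes whose transcription can depend on DNA methylation at their own promoters or control regions. Of 22 germline genes that promoter methylation keeps silent, mostly from work in mice, 10 had no count in either library and 2 passed the filter. Of all 58735 genes, 26027 had a count in the SETDB2 library and 26299 in the control library. GTSF1, which acts with PIWI proteins, had 464 counts in the SETDB2 library and 453 in the control library, a log2 ratio of 0.03. STK31, a testis kinase, had 93 counts in the SETDB2 library and 66 in the control library, a log2 ratio of 0.49 (0.02 to 0.97). Among those under the filter, the interval excluded equality for a pair of genes, named here after their values were seen, and they pointed opposite ways. How often other genes under the filter did so was not counted, so the pair is no result about these genes. Without the filter 1922 of all genes were at least 2-fold apart, beside 389 with it. PIWIL1 had 15 counts in the SETDB2 library and 2 in the control library, a log2 ratio of 2.63 (0.80 to 6.07). MOV10L1 had 2 counts in the SETDB2 library and 11 in the control library, a log2 ratio of -2.21 (-5.68 to -0.27).

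Imprinted genes, which in some tissues at least are expressed from 1 parental allele under the control of methylated regions, lay on both sides of 0. Of 25 genes 16 passed the filter, 8 above 0 and 8 below, with a median of 0.01, and 3 were higher and 4 lower past the smaller threshold, beside 7.74% and 10.5% of all genes. GRB10, a growth factor receptor adaptor, had 9399 counts in the SETDB2 library and 14823 in the control library, a log2 ratio of -0.66 (-0.70 to -0.63). PEG10, a retrotransposon-derived gene, had 308 counts in the SETDB2 library and 182 in the control library, a log2 ratio of 0.75 (0.48 to 1.03). DIRAS3, a small GTPase of the RAS family, had a log2 ratio of 0.86 (0.22 to 1.55) on 57 counts in the SETDB2 library and 31 in the control library, and L3MBTL1, a chromatin reader, had one of -0.47 (-0.72 to -0.22). None of these 16 was 2-fold apart. Methylation itself was not measured, and counts do not separate the alleles.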
